A study of Drosophila melanogaster with 6 samples.

Results

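This account covers 3486 windows of 1 kb, chosen by their preimmune and input read counts, on the large chromosome arms X, 2L, 2R, 3L and 3R of Drosophila melanogaster in which chromatin brought down by preimmune serum held at least 2 times as many scaled reads as input chromatin, in su(Hw)f mutant ovaries and in wild-type ovaries alike. They were drawn from 119027 windows on these arms, of which 112437 held 20 or more reads in each pair of preimmune and input libraries and could be tested, and they are called member windows here. Chromosome 4 was left out by the rule. The libraries came from ovaries of virgin females less than 6 h old. The mutant group carried su(Hw)f, with a strain label of su(Hw)fv, and the wild-type group was Canton S. Each group had 1 preimmune library and 1 input library, so no test between groups was possible and every value below is a description of these 4 libraries. As the strains differ, their backgrounds and the su(Hw) allele cannot be told apart. The antibody field of every sample names the Su(Hw) antibody, while the sample descriptions name preimmune serum and input chromatin, and the deposited tracks carry the names igG and WCE. Whether ovaries of several females were pooled is not given in the sources used here. The libraries made with the Su(Hw) antibody itself are not analysed here.

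su(Hw) encodes a zinc finger protein that binds DNA and is best known as a protein of the gypsy insulator. In a chromatin immunoprecipitation, fixed and sheared chromatin is pulled down with an antibody. Preimmune serum, taken before an animal is immunised, shows what is recovered without the specific antibody, while input is the sheared chromatin before any pull-down. A window can reach a high preimmune to input ratio because it holds many preimmune reads or because it holds few input reads, and the levels of both libraries are therefore given for every set of windows.

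Library totals ran from 12173312 to 20596448 reads, with 97.4% to 98.5% of reads on the arms X, 2L, 2R, 3L, 3R and 4, to which each library was scaled. The median tested window held 174 reads in preimmune and 161 in input of the mutant, against 100 in wild-type preimmune and 116 in wild-type input. The intervals below are exact (Clopper-Pearson for shares, and its conditional form for ratios), have a level of 95%, and cover counting error only, because polymerase chain reaction duplicates are not independent molecules. They are too narrow for the shares by distance from a member, where each pair of members is counted from both ends. The wild-type libraries are the shallower ones, so wild-type ratios are the less precise at equal levels.

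Of the tested windows, 7270 reached a ratio of 2 in su(Hw)f, which is 6.47%, and 10558 reached it in wild type, which is 9.39%. The 3486 windows that did so in both made up 3.10% of those tested. They were 48.0% of the su(Hw)f list (46.8% to 49.1%) and 33.0% of the wild-type list (32.1% to 33.9%). No library enters both ratios. Because these ratios chose the members, nothing is read from their size. Among members the ratio had a median of 2.37 in su(Hw)f (middle 50% of windows from 2.16 to 2.74) and 2.62 in wild type (2.27 to 3.19).

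Most members sat close to the threshold. The lower of a window's ratios was 2.5 or more in 881 members, 3 or more in 247 and 4 or more in 19. The 5 members closest to the threshold had a lower ratio between 2.0001 and 2.0003, and the 5 windows just outside it had one between 1.9991 and 1.9998. The closest member was 3L 13917001 to 13918000, with 181 preimmune and 93 input reads in the mutant and 192 and 108 in wild type. The closest window outside was X 12669001 to 12670000, with 72 and 37 reads in su(Hw)f and 113 and 54 in wild type. The interval of the ratio lay above 1 in both genotypes for 3472 members and at 2 or above in both for 360. When the grid was moved by 500 bp, 3455 windows met the rule, and 46.4% of the members overlapped one of them. The number of members therefore changed little with the grid, while the place of a single 1 kb window often did not carry over.

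The level of the members differed between the preimmune libraries. In mutant preimmune a member held a median of 139 reads, which is 0.799 times the library median (middle 50% from 0.592 to 0.989), and in su(Hw)f input it held 58 reads, 0.360 times the median (0.255 to 0.466). In wild-type preimmune the median was 149 reads, 1.49 times the library median (1.16 to 1.84), and in wild-type input it was 64 reads, 0.552 times (0.431 to 0.672). Members were thus low in both inputs, above the median in wild-type preimmune, and below it in su(Hw)f preimmune.

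Counts of windows show the same split. su(Hw)f preimmune lay above its own median in 824 members, or 23.6%, against 49.4% of all tested windows. Wild-type preimmune lay above its median in 2923 members, or 83.8%, against 48.8% of all tested windows. Both preimmune libraries were above their medians in 820 members, 23.5%, close to the 25.5% of all tested windows. Those 820 had median levels of 1.15 in preimmune and 0.553 in input of the mutant, and of 1.79 and 0.716 in wild type, so they too were low in input. Both preimmune libraries were below their medians in 540 members, 15.5%, against 26.4% of all tested windows. Input was below the median in both genotypes in 3455 members, 99.1%, against 42.5% of tested windows, and at 0.5 times the median or less in both in 1373, 39.4%, against 4.82%. The members are thus enriched relative to input. As a level of preimmune reads the name "enriched by preimmune" held for 83.8% of members in wild type and for 23.6% in su(Hw)f. Input is the denominator of the ratio that chose the windows, so a low input level is in part set by that choice.

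**Figure D1:**
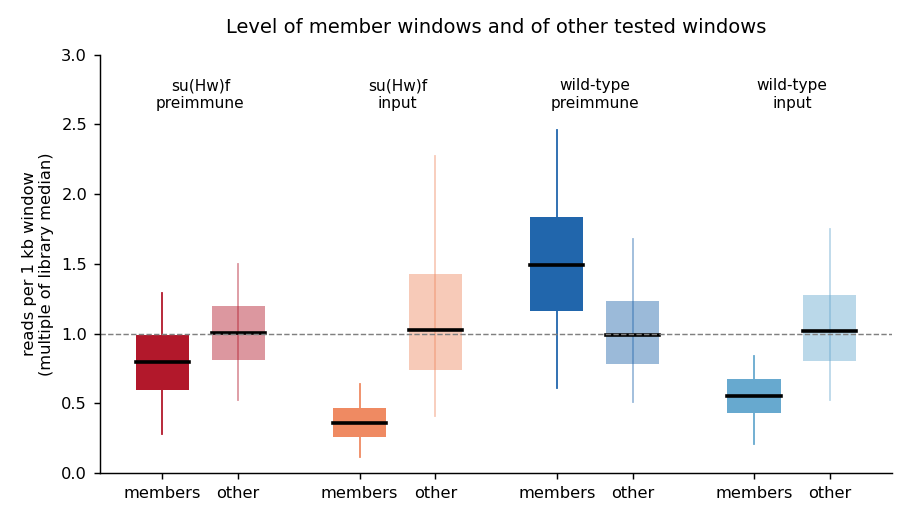
Reads per 1 kb window as a multiple of the library's median tested window (vertical axis), for members and for other tested windows in each of the 4 libraries. Boxes span the middle 50% of windows, black lines are medians and thin lines run from the 5th to the 95th percentile. Members sit at a median of 0.799 in su(Hw)f preimmune, 0.360 in su(Hw)f input, 1.49 in wild-type preimmune and 0.552 in wild-type input.

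To see levels in libraries that had no part in the choice, windows called in one genotype were read in the other. The 10558 windows called in wild type had a median su(Hw)f preimmune level of 0.764 times the library median, against 1.02 in the windows not called, and a su(Hw)f input level of 0.484 against 1.06. Their su(Hw)f ratio had a median of 1.75, against 1.05 in the rest. The 7270 windows called in su(Hw)f had a median wild-type preimmune level of 1.20, against 0.980 in the windows not called, and a wild-type input level of 0.621 against 1.03. Their wild-type ratio had a median of 1.96, against 0.968. Calls made in either genotype thus marked low input in the other. They marked a raised preimmune level in wild type and a lowered one in su(Hw)f.

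Ranking windows by the reads of the other genotype gave the same picture across the whole range. The share of windows called in su(Hw)f was 30.1% in the lowest decile of wild-type input, 2.57% in the fifth decile and 0.0445% in the highest decile. Called shares in wild type were 46.7% in the lowest decile of su(Hw)f input, 2.66% in the fifth decile and 0.0178% in the highest. By preimmune the directions parted. The share called in su(Hw)f was 6.20% in the lowest decile of wild-type preimmune and 17.1% in the highest, with a low of 3.18% in the second decile. The share called in wild type went down steadily along su(Hw)f preimmune, with 29.0% in the lowest decile and 1.60% in the highest.

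**Figure D2:**
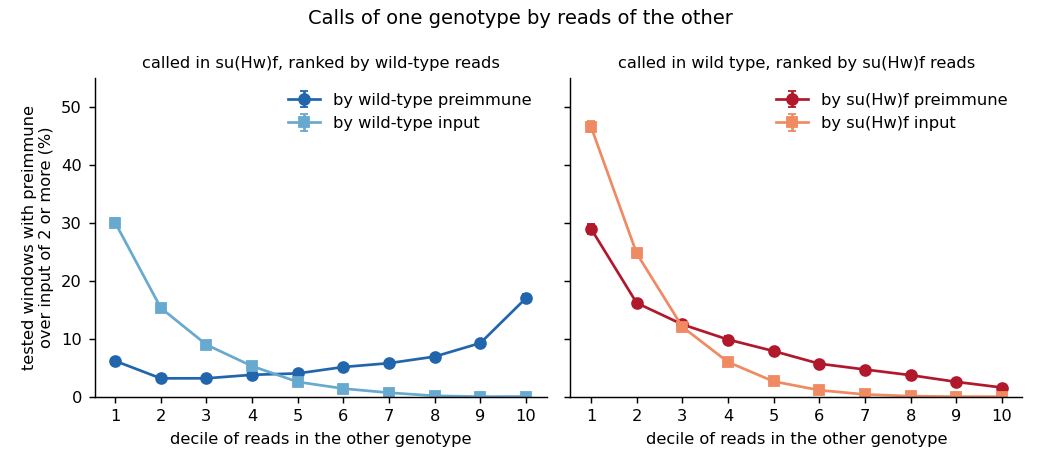
Share of tested windows called at 2-fold (vertical axis, percent) in su(Hw)f by deciles of wild-type reads (left) and in wild type by deciles of su(Hw)f reads (right), lowest decile at 1. Bars are 95% Clopper-Pearson intervals, mostly smaller than the symbols. Calls thin out with input on both sides, while with preimmune they become more frequent on the left from the third decile on and less frequent on the right.

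The libraries themselves were related in the same way. Over the 112437 tested windows, which share libraries and depth and are not replicates, the inputs had a Spearman correlation of 0.901. su(Hw)f preimmune had one of 0.590 with su(Hw)f input and of 0.622 with wild-type input. Wild-type preimmune had one of -0.0943 with wild-type input and of -0.215 with su(Hw)f input, and the preimmune libraries had one of 0.112 with each other. The su(Hw)f preimmune library thus followed both inputs along the arms, and wild-type preimmune followed neither. What sets this difference between the preimmune libraries was not tested.

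Among windows with a like input level, calls still fell together. In the lowest decile of wild-type input, 43.2% of windows called in wild type were called in su(Hw)f, against 19.5% of windows not called in wild type. In the second decile the shares were 28.5% and 11.0%, in the third 22.4% and 7.03%, and in the fourth 17.5% and 4.42%. Ranked by su(Hw)f input the shares lay closer together, at 52.1% and 32.4% in the lowest decile, 21.3% and 13.8% in the second and 9.42% and 4.60% in the third. Input levels still vary within a decile, and how much of the overlap that accounts for was not tested. Where both inputs were above their medians, the rule was met by 2 of 48033 windows, with 11 called in su(Hw)f and 61 in wild type. Where both inputs were at 0.5 times the median or less, 38.0% of 5414 windows were called in su(Hw)f, 51.0% in wild type and 25.4% in both.

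Levels beside the members were read out to 5 kb. The levels inside the window chose the members, and the profile is centred on that window, so a change about as wide as the window is set by the choice and no width is read from it. Around the 2145 members that had no other member within 5 kb and whose surroundings could be read on both sides, the mean su(Hw)f preimmune level was 0.809 times the mean over tested windows inside the window and 0.924 at 1 to 2 kb from its centre. The su(Hw)f input level was 0.333 inside and 0.866 at 1 to 2 kb. In wild type, preimmune stood at 1.46 inside and 0.971 at 1 to 2 kb, and input at 0.528 and 0.900. At 4 to 5 kb the levels were 0.924, 0.890, 0.949 and 0.908 in the same order of libraries, so all 4 were slightly below their means over a wider stretch. In the 100 bp steps centred up to 250 bp from the window centre, input lay between 0.301 and 0.311 in su(Hw)f. In wild type it lay between 0.501 and 0.510 over the same steps.

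**Figure D3:**
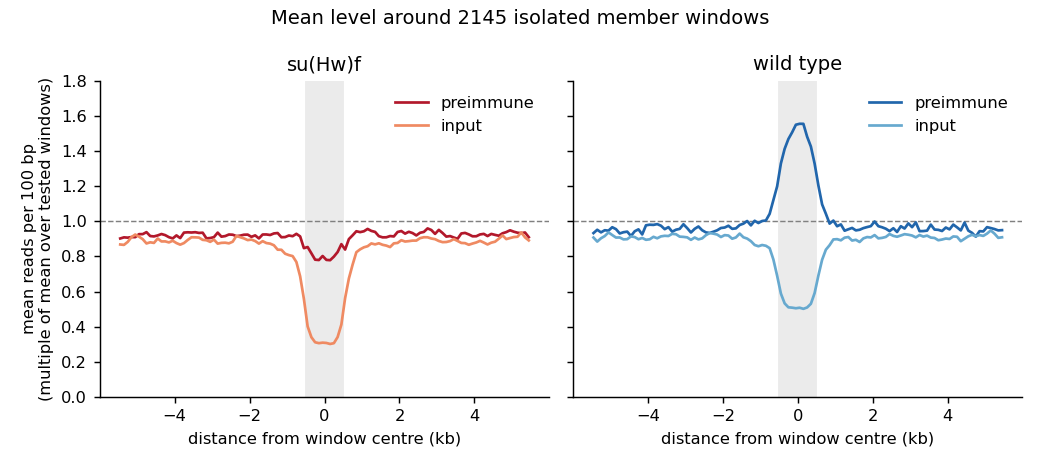
Mean reads per 100 bp as a multiple of the library's mean over tested windows (vertical axis) by distance from the window centre in kb (horizontal axis), for 2145 isolated members. The grey band is the 1 kb window that the rule read. In su(Hw)f both lines dip, input to near 0.30 and preimmune to near 0.78, and in wild type preimmune peaks at 1.56 over an input dip to 0.501.

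Taken in each genotype alone, the excess within a member was spread over the window and not carried by a single 100 bp step in most cases. Scaled preimmune was above scaled input in a median of 9 of the 10 steps in each genotype. It was so in 8 or more steps in 79.5% of members in su(Hw)f and 77.1% in wild type, against 21.1% and 14.0% of all tested windows, a comparison that the choice of members sets. The fullest step held a median of 22.0% of su(Hw)f preimmune reads and 21.2% of wild-type preimmune reads. Without that step, the ratio stayed at 2 or more in 2470 members in su(Hw)f and in 2646 in wild type. DNA in which no library had a read was more frequent in members. At least one 100 bp step without a read in any library was found in 361 members, 10.4%, against 4.39% of all tested windows. When such windows were left out, an alternative chosen after seeing the data, 3125 members remained.

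Members were mostly single windows. They formed 3224 runs, of which 2993 were 1 window, 205 were 2 windows, 21 were 3 windows and 5 were 4 windows long. An adjoining window was a member too for 14.1% of members (13.0% to 15.3%), while 5.59% of the other tested windows had a member beside them. These shares depend on how many windows the rule takes. They were 1.62% of members (4 of 247) and 0.403% of other windows at a fold of 3, and 8.75% and 2.23% in 2 kb windows. With preimmune above the median in both genotypes as well they were 3.41% and 1.43%. Of the tested windows next to a member 7.75% (7.13% to 8.42%) were members themselves, against 3.10% of all tested windows. The share was 5.48% at 2 kb, 4.72% at 5 kb, 4.03% at 10 kb, 4.57% at 20 kb and 3.73% at 50 kb. The share was thus highest at the nearest distance, it did not go down at every step, and the share at 50 kb was still slightly above that of all tested windows. In these shares by distance each pair of members was counted from both ends, so their intervals are narrower than counting error. Whether the small gap at 50 kb exceeds counting error was not tested. No other member lay within 5 kb of 2146 members, or 61.6%.

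**Figure D4:**
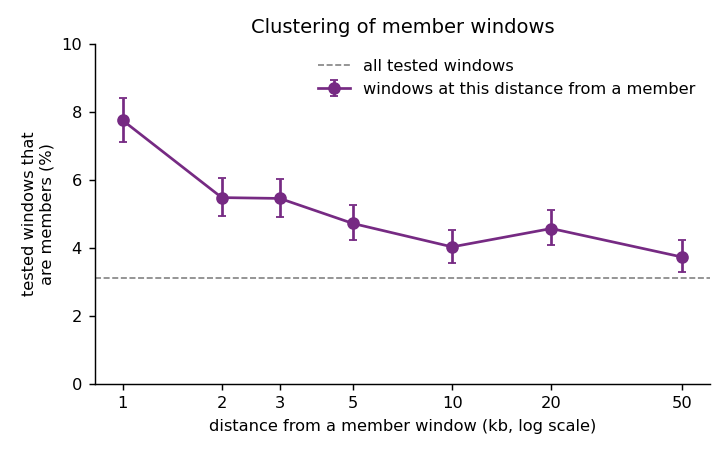
Share of tested windows that are members (vertical axis, percent) by distance from a member in kb on a log scale (horizontal axis), with 95% Clopper-Pearson intervals. Each pair of members is counted from both ends, so the bars are narrower than counting error. The dashed line is the share among all tested windows, 3.10%. The share is 7.75% at 1 kb and 3.73% at 50 kb, and all points lie above the line.

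Windows beside members that were not members themselves were shifted the same way. Over 6086 such windows the median ratio was 1.30 in su(Hw)f and 1.27 in wild type, against 1.08 and 0.987 in all other tested windows. Their su(Hw)f preimmune level was 0.931 and their su(Hw)f input level 0.807, against 1.01 and 1.02 in the others. In wild type the levels were 1.07 in preimmune and 0.871 in input, against 0.990 and 1.02. At 10 kb the median ratios were 1.17 and 1.09, so a small regional shift reached beyond the windows that adjoin a member.

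The 5 longest runs measured 4 kb. The run with the most preimmune reads was 3R 6434001 to 6438000, with 567 preimmune and 239 input reads in the mutant and 693 and 216 in wild type. Its ratio was 2.44 in su(Hw)f (2.09 to 2.85) and 3.71 in wild type (3.18 to 4.34). 2L 16580001 to 16584000 held 595 and 276 reads in su(Hw)f and 613 and 260 in wild type, and its ratios were 2.22 and 2.73. X 15883001 to 15887000 held 513 and 222 reads in the mutant and 564 and 252 in wild type, with ratios of 2.37 and 2.59. In all of these the su(Hw)f preimmune level was below the library median, between 0.737 and 0.855 times, and the wild-type level was above it, between 1.41 and 1.73 times.

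2R 15832001 to 15836000 had ratios of 2.21 in su(Hw)f and 2.93 in wild type. 2L 22910001 to 22914000 differed from the others in place and depth. It lies 97.6 kb from the centromere-side end of 2L and held 120 preimmune and 43 input reads in the mutant and 264 and 75 in wild type. All 4 libraries were far below their medians there, at 0.172 and 0.0668 times in su(Hw)f and 0.660 and 0.162 times in wild type. The other 5 runs named by length were 3 kb long, namely 3R 6103001 to 6106000, 2L 17392001 to 17395000, 2R 614001 to 617000, X 12856001 to 12859000 and X 3007001 to 3010000. Their ratios ran from 2.41 to 2.97 in the mutant and from 2.83 to 3.78 in wild type. Of these 5, 3R 6103001 to 6106000 had su(Hw)f preimmune above the library median, at 1.14 times.

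With windows of 5 kb, 68 of 23205 met the rule, and 32 of them (47.1%) lay in the outer 1.5 Mb of an arm on its centromere side, against 5.69% of the 5 kb windows tested. They held few reads. Their median level was 0.238 times the library median in preimmune and 0.105 in input of the mutant, against 0.495 in wild-type preimmune and 0.203 in wild-type input.

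Per 100 kb, members were spread unevenly. Of 1175 segments with at least 50 tested windows, 165 held no member, the median held 2, and 26 held 10 or more. Those 26 held 293 members, or 8.41%. 2R 600001 to 700000 had the most, with 17 members among 70 tested windows, and its median window was at 0.477 times the library median in su(Hw)f preimmune, 0.273 in su(Hw)f input, 0.700 in wild-type preimmune and 0.422 in wild-type input. 2R 1000001 to 1100000 had 14 among 87, with levels of 0.701 and 0.457 in preimmune and input of the mutant and of 0.990 and 0.595 in wild type. Away from the centromeres, 2L 17700001 to 17800000 had 14 among 99, with a median su(Hw)f input of 0.689 and a median wild-type input of 0.828. X 9400001 to 9500000 had 13 among 99, with inputs at 0.820 and 0.884, and 3L 14300001 to 14400000 had 13 among 95, with inputs at 0.643 and 0.763. X 22300001 to 22400000 also had 13, among 73, with inputs at 0.295 and 0.397. Both inputs were thus below 0.6 times the median in the 3 segments near centromeres and at 0.643 times or more in those inside the arms. Wild-type preimmune was not low in all of the segments near centromeres, since it was at the median in 2R 1000001 to 1100000.

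Members took different shares of the arms. They were 3.73% of tested windows on 2L (3.48% to 3.99%), 3.42% on 3L (3.19% to 3.66%) and 3.32% on X (3.08% to 3.57%), and 2.56% on 2R (2.34% to 2.79%) and 2.55% on 3R (2.37% to 2.75%). Input levels followed the opposite order in part. The median su(Hw)f input level of tested windows was 0.938 on 2L and 3L and 1 on X, and it was 1.10 on 2R and 1.04 on 3R. In wild-type input the levels were 0.966 on 2L and 3L, 0.983 on X, 1.06 on 2R and 1.03 on 3R. Within members the levels differed little between arms, from 0.332 on X to 0.391 on 3R in su(Hw)f input and from 0.513 on X to 0.578 on 3R in wild-type input. The median step between neighbouring members was 16 kb on X and 2R and 22 kb on 3R. The longest stretch without a member was 563 kb, at 2R 2931001 to 3494000, followed by 511 kb at 3R 24566001 to 25077000.

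Along the arms, members were most frequent near the centromere, where repeated DNA and heterochromatin are known to begin. Within 1.5 Mb of the centromere-side end lay 419 members, 12.02% (11.0% to 13.1%), against 4.91% of tested windows. The share of tested windows that were members was 8.45% in the first 0.5 Mb, 7.84% from 0.5 to 1 Mb, 6.62% from 1 to 1.5 Mb, 4.34% from 1.5 to 2 Mb and 2.81% from 2 to 3 Mb. From 3 Mb on it lay between 2.01% and 3.53%. The median su(Hw)f input level of tested windows over the same bins was 0.584, 0.658, 0.820, 0.907 and 1.04, and that of wild-type input 0.681, 0.776, 0.879, 0.931 and 1.03. Input level and distance thus moved together, and their parts in the count of members were not separated. The arms differed here. 2R reached 14.8% at 1 to 1.5 Mb and 3L 11.0% at 0.5 to 1 Mb, while 3R had 6.05% in the first 0.5 Mb and 2.46% at 1 to 1.5 Mb. Without the windows that hold an unread step, 9.66% of members were in the centromere-side 1.5 Mb, against 4.04% of the windows then tested. When preimmune also had to be above the median in both genotypes, which was chosen after seeing the data, the share of the 820 members there was 5.37% (3.93% to 7.14%), an interval that includes the 4.91% of all tested windows. Of the 28684 tested windows above both preimmune medians, from which these 820 were drawn, 3.78% lay there, just below that interval.

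**Figure D5:**
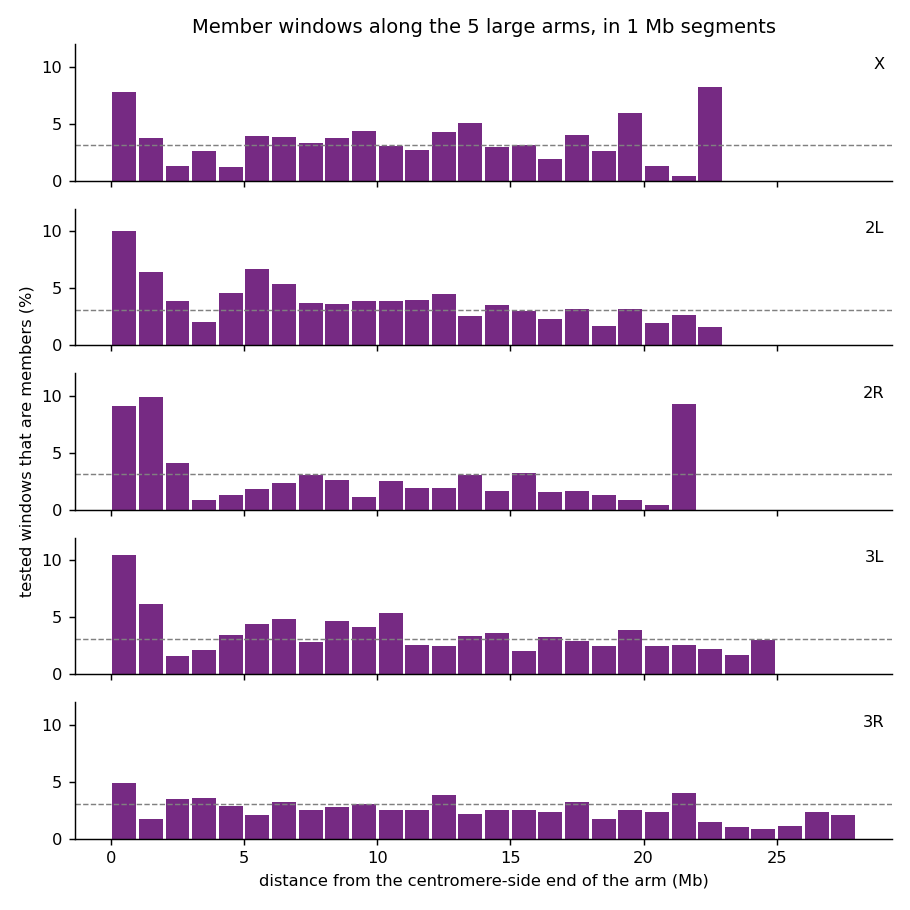
Share of tested windows that are members (vertical axis, percent) in 1 Mb segments by distance from the centromere-side end of each arm (horizontal axis, Mb), shown for segments with at least 100 tested windows. The dashed line is 3.10%. The first segment reaches 10.5% on 3L, 10.03% on 2L, 9.09% on 2R, 7.77% on X and 4.93% on 3R, and the last segment at the tip of 2R (9.30%) holds only 129 tested windows.

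Members near centromeres were not the same in level as the others. The 419 of them had a median su(Hw)f preimmune level of 0.575 and a su(Hw)f input level of 0.236, against 0.828 and 0.373 in the 3067 members elsewhere. In wild type they had 1.13 in preimmune and 0.422 in input, against 1.54 and 0.569. Wild-type preimmune was above its median in 58.7% of members near centromeres and in 87.3% of the rest, and su(Hw)f preimmune in 10.5% and 25.4%. All 4 library medians of members were lower near centromeres than elsewhere. Tested windows as a whole were lower there too. They were at 0.822 in preimmune and 0.689 in input of the mutant near centromeres, against 1.01 and 1.01 elsewhere. In wild type they were at 0.910 and 0.784, against 1 and 1.01. The lower levels near centromeres were thus not particular to members. The median ratios were 2.52 near centromeres and 2.35 elsewhere in su(Hw)f, and 2.64 and 2.61 in wild type.

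At the telomere side, members were frequent in the outermost 0.1 Mb of X, 2R and 3R and sparse from 0.5 to 1 Mb. They were 3.77% of tested windows in the first 0.5 Mb (3.02% to 4.64%) and 0.542% from 0.5 to 1 Mb (0.289% to 0.925%), with 85 and 13 members. By arm, the first 0.5 Mb had 6.85% on X, 3.63% on 3R, 3.08% on 3L, 2.90% on 2R and 2.75% on 2L. Only on X did the interval (4.60% to 9.74%) lie above the 3.10% of all tested windows. In the first 0.1 Mb the shares were 12.7% on X (9 of 71), 11.2% on 3R (9 of 80), 10.1% on 2R (10 of 99), 5.88% on 2L (5 of 85) and 2.70% on 3L (1 of 37). The outermost 0.1 Mb of 2R had a median su(Hw)f input level of 0.491 and a wild-type input level of 0.716, and the segment from 0.5 to 1 Mb had 1.37 and 1.22. In the outermost 0.1 Mb the inputs were at 0.689 and 0.767 on X and at 0.668 and 0.815 on 3R. Low input and a higher share of members thus stood together at the tips of X, 2R and 3R, with few windows behind each share. On 2L the inputs there were at 0.925 and 1.03, and on 3L, with the lowest share, at 0.733 and 0.828. Over the first 0.5 Mb of all arms they were above the median, at 1.12 and 1.11. In the outermost 0.1 Mb the intervals of 2L (1.94% to 13.2%) and 3L (0.0684% to 14.2%) included the 3.10% of all tested windows. Few windows of the 3L tip were tested.

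The windows with the highest ratios differed in level. Among the 3253 members with at least 20 input reads in each genotype, X 2684001 to 2685000 had the highest lower ratio, with 722 preimmune and 153 input reads in the mutant and 678 and 106 in wild type. 2R 5881001 to 5882000 came next and held 138 and 32 reads in su(Hw)f and 228 and 51 in wild type, for ratios of 4.43 (3.00 to 6.73) and 5.17 (3.80 to 7.15). Its preimmune level was 0.793 in su(Hw)f and 2.28 in wild type, and its input level 0.199 and 0.440. 2R 837001 to 838000 held 201 and 41 reads in su(Hw)f and 190 and 51 in wild type, for ratios of 5.04 and 4.31, and its preimmune levels were 1.16 and 1.90. The other named windows by this rule were 3R 5459001 to 5460000, 2R 17654001 to 17655000, 2L 16074001 to 16075000, 3R 8390001 to 8391000, 3L 7749001 to 7750000, X 21503001 to 21504000 and 2L 11356001 to 11357000. Their ratios ran from 3.98 to 4.55 in the mutant and from 4.11 to 6.04 in wild type. In 6 of these 7 the su(Hw)f preimmune level was between 0.5 and 0.764, below the median, and X 21503001 to 21504000 was the exception, at 1.33 in su(Hw)f and 3.45 in wild type. Wild-type preimmune was above its median in all 7, between 1.24 and 2.02 times in those 6.

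Few members stood far above the median in both preimmune libraries. Of all members, 55 were at 1.5 times the median or more in both (1.58%, against 0.559% of all tested windows). Such levels were thus rare, but more frequent in members, which the choice by preimmune over input in part sets. At 2 times or more there were 8 members (0.229%, against 0.0240%), and at 3 times or more 3 (0.0861%, against 0.00889%). All of the last group lay on X. X 8188001 to 8189000 had the most reads, 2268 preimmune and 1047 input in su(Hw)f and 1872 and 770 in wild type, at 13.0 and 6.503 times the median in su(Hw)f and 18.7 and 6.64 times in wild type. Its ratios of 2.23 (2.07 to 2.40) and 2.81 (2.58 to 3.06) rest on a high input. The step from 8188601 to 8188700 was the fullest in all 4 libraries, with 23.4% to 28.4% of the reads of the window, and other steps held none. X 8187001 to 8188000 beside it was a member with few reads, 15 and 7 in su(Hw)f and 40 and 12 in wild type. On the other side X 8189001 to 8190000 held 2198 and 1070 reads in su(Hw)f and 1518 and 886 in wild type and missed the threshold in wild type, at 1.98.

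The other members at 3 times the median or more were the neighbours X 2684001 to 2685000 and X 2685001 to 2686000, with su(Hw)f preimmune at 4.15 and 4.45 and wild-type preimmune at 6.78 and 5.78. Unlike the large majority of members, they were near the median in input, at 0.9503 and 1.26 in su(Hw)f and 0.914 and 1.13 in wild type. In the second of them every 100 bp step held at least 31 su(Hw)f and 46 wild-type preimmune reads, so the excess covered the whole window. The next window, X 2686001 to 2687000, had 803 reads in preimmune and 479 in input of the mutant and 477 and 169 in wild type. It met the threshold in wild type at 3.26 and missed it in su(Hw)f at 1.72, where input was 2.98 times the median. X 2690001 to 2691000 was a member as well, with 377 preimmune reads and 1 input read in the mutant against 461 and 111 in wild type. Its su(Hw)f ratio has an interval of 69.1 to 15343 and gives no usable size. X 2685001 to 2686000 and X 8188001 to 8189000 were the members with input above the median in both genotypes.

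Between genotypes, members held fewer scaled reads in su(Hw)f in both kinds of library. The su(Hw)f over wild-type ratio in members had a median of 0.556 in preimmune (middle 50% from 0.439 to 0.694) and 0.619 in input (0.515 to 0.734), against 1.05 and 0.966 in other tested windows. Members held 2.46% of the reads of mutant preimmune on the arms and 4.47% of those of wild-type preimmune. They held 1.01% of mutant input and 1.61% of wild-type input. The ratios behind the choice contain these same reads. Windows called in 1 genotype only were compared as multiples of the mean over tested windows. Those called in wild type only stood at 0.748 in mutant and 1.52 in wild-type preimmune, and at 0.506 and 0.612 in input. Those called in su(Hw)f only stood at 0.975 in both preimmune libraries, and at 0.428 and 0.661 in input. Lower su(Hw)f input was thus not particular to members, and lower su(Hw)f preimmune was shared with windows called in wild type only. The medians were 0.540 in preimmune and 0.584 in input near centromeres, and 0.558 and 0.622 elsewhere.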

How the data were processed

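Chromatin was fixed in 1.8% formaldehyde and libraries were amplified for 15 cycles to fragments of about 250 bp, per the labels' protocols. The authors deposited read counts per 100 bp window, 1 wiggle track per library, per the file headers, and the counts are whole numbers that were not scaled. Build dm3 and Partek 6.5 are named in the submitters' processing notes. The aligner and the handling of duplicate and multiply matching reads were not given in the sources used here. Dropping reads that match several places would leave repeated DNA unread.

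Windows were summed to 1 kb from base 1, libraries were scaled to their reads on X, 2L, 2R, 3L, 3R and 4, and windows with 20 or more reads per preimmune and input pair were compared with a fold of 2 (called tested). Python 3.11.15, numpy 2.4.6, pandas 2.3.3 and scipy 1.17.1 were used, and the window rule was run on simulated Poisson counts. That check set a pass mark only for a planted 4-fold change, which 19 members reached in both genotypes. It thus cannot speak for members near the threshold. The members and the sets described were chosen with earlier results of these data known. Named windows were the 10 longest runs (ties by preimmune reads), the 10 highest lower ratios with 20 input reads per genotype, the 5 nearest windows on each side of the threshold, the 5 segments of 100 kb with the most members (6 are named, as the last place was tied) and the 3 members with the most preimmune reads. Alternatives covered scaling, count minimum, fold, window size, grid and place. No dm3 sequence or annotation was used here, so no gene names, sequences or base composition are given.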

Additional observations from a re-analysis of the deposited data

Results flagged for a closer look

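The ratio rule was also applied to DNA outside the 5 large arms, which no comparison above uses. On chromosome 4, 235 of 1156 tested windows met it, or 20.3% (18.0% to 22.8%), with a median input level of 0.435 in su(Hw)f and 0.612 in wild type. On the assembled heterochromatin scaffolds of X, 2L, 2R, 3L and 3R, 318 of 3656 met it, or 8.70% (7.80% to 9.66%), with inputs at 0.292 and 0.388. On the unplaced scaffolds U and Uextra, 106 of 1215 met it, or 8.72% (7.20% to 10.5%), with inputs at 0.211 and 0.310. They are listed because windows met the rule in data that the report leaves out. On the 5 large arms 3.10% of tested windows met it.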

How the results depend on the processing

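No paired analysis was possible because each group holds a single library. The number of members, 3486, was 247 at a fold of 3 and 13893 at a fold of 1.5. It was 12681 in 500 bp, 720 in 2 kb and 68 in 5 kb windows, and 1999 without the fullest preimmune step of each window. It was 820 when preimmune had to be above the median in both genotypes too, and 3125 without windows holding an unread step, both added after seeing the data. Under the other 8 alternatives it lay between 2386 and 3538. Input stayed below the median in members and the su(Hw)f over wild-type ratios below 1 under every alternative computed for them. The median input of members, 0.360 in su(Hw)f and 0.552 in wild type, was 0.193 and 0.397 at a fold of 3, 0.329 and 0.526 with ratios scaled to a median of 1, and 0.553 and 0.716 with preimmune above the median. In su(Hw)f it was 0.346 in 2 kb windows and 0.370 without unread steps. The su(Hw)f over wild-type ratio, 0.556 in preimmune and 0.619 in input, was 0.446 and 0.480 at a fold of 3, 0.581 and 0.630 in 2 kb windows, and 0.690 and 0.729 with preimmune above the median. With ratios scaled to a median of 1 it was 0.589 in input. The share of members in the centromere-side 1.5 Mb, 12.02%, was 14.98% at a fold of 3 and 22.4% in 2 kb windows. It was 13.6% with ratios scaled to a median of 1 and 9.66% without unread steps. With preimmune above the median it was 5.37% (3.93% to 7.14%). That interval includes the 4.91% of all tested windows and lies just above the 3.78% of tested windows with preimmune above both medians. The share next to another member, 14.1%, was 1.62%, 8.75%, 10.98% and 3.41% at a fold of 3, in 2 kb windows, with scaled ratios and with preimmune above the median. As reported, 23.2% of members were on 2L, 14.6% on 2R, 22.6% on 3L, 19.8% on 3R and 19.9% on X. Of all tested 1 kb windows, 19.3%, 17.7%, 20.5%, 24.1% and 18.5% were on these arms in the same order. At a fold of 3, 20.2% of members were on 2L, 12.1% on 2R, 17.4% on 3R and 26.7% on X. In 2 kb windows 15.97% were on 2R and 16.7% on 3R, and with preimmune above the median 24.4% were on 3R and 15.98% on X. Shifts follow in part from each rule's own construction, since a higher fold or an added floor on preimmune selects on the levels listed; other causes were not tested. With 1 library per group there is no estimate of spread between ovaries, and windows low in input rest on few reads.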
